A study of Homo sapiens with 12 samples.

Results

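The transcriptional response of wild-type A549 cells to pyridostatin was followed in 6 RNA-seq libraries, 3 from cells given 1 µM pyridostatin for 24 h and 3 from cells given vehicle (DMSO), out of 12 in the series. Of the 25365 names in the deposited table, genes averaging 1 FPKM or more across these 6 libraries were taken, which left 11813. FPKM counts fragments relative to transcript length and to sequencing depth, so it compares levels between genes per length. A549 is an epithelial line from a human lung adenocarcinoma. The other 6 libraries come from A549 cells labelled PARP3-/-, again 3 with vehicle and 3 with 1 µM pyridostatin for 24 h. The deletion in PARP3, which encodes a poly(ADP-ribose) polymerase of DNA repair, was made with Cas9 and the cells were then cloned. Each group is a biological triplicate, grown in the same medium.

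Pyridostatin is a small molecule that binds and stabilizes G-quadruplexes (G4s), four-stranded structures that guanine-rich DNA or RNA can fold into. Stabilized G4s impede replication forks and transcription and can lead to DNA breaks, to which cells answer through the kinases ATM and ATR and the transcription factor p53. Active p53 raises genes for cell cycle arrest, for its own degradation, for cell death and for DNA repair, and the cyclin-dependent kinase inhibitor p21 that it induces keeps RB bound to E2F factors, on which genes of DNA replication depend.

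The promoters of 6 genes whose changes are described in the next paragraphs were read from the RefSeq promoter table (GRCh38.p14). BTG2, CDKN1A and DDX42 are shown because each passed both thresholds and kept its call in every alternative. GAS6-AS1 did so too and is not shown. PDGFA is shown because its promoter is a known G4 former, and GINS2 because it had one of the largest falls. Whether the stretch marked in PDGFA is the one known to form a G4 was not checked. ACTA2 is shown because it alone among the 15 largest rises held a p53 element in its window. All 6 genes shown hold a marked motif or element, so they do not stand for the response as a whole. Each line gives the 250 bases before the annotated start, 5′ to 3′ on the strand of the gene, except that of ACTA2, which runs from 50 bases before the start to base 29 of the transcript. Capitals mark a G4 motif, that is, 4 runs of at least 3 G (GGG) with loops of 1 to 7 bases, or the same pattern in C (CCC) where it lies on the other strand, and in ACTA2 a p53 response element.
BTG2: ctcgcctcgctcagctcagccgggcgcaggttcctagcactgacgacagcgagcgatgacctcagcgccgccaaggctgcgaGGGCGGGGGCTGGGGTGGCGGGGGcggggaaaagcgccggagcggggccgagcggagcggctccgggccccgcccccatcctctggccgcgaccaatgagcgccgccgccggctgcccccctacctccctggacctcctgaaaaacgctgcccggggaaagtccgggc
CDKN1A: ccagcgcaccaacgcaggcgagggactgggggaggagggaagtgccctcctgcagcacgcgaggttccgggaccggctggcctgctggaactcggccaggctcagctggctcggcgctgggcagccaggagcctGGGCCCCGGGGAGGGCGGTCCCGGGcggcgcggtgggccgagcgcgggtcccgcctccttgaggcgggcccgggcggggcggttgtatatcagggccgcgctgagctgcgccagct
DDX42: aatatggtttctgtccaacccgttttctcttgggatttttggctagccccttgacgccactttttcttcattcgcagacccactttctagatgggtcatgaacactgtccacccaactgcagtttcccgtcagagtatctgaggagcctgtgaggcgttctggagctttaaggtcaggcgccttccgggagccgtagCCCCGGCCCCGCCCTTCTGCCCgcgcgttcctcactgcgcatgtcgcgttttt
PDGFA: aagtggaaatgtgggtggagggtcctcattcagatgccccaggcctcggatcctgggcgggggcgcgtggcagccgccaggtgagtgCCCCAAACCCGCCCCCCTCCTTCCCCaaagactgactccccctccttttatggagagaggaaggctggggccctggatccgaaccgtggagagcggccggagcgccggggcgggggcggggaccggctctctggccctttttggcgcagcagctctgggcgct
ACTA2: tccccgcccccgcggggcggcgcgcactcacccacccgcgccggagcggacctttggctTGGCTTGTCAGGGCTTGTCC
GINS2: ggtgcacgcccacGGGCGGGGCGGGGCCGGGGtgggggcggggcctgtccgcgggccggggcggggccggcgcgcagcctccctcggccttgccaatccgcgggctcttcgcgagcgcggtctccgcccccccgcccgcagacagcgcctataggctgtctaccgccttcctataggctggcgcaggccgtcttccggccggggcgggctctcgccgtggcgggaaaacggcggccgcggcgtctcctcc

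The windows lie at chr1:203305269-203305518 (plus strand) for BTG2, chr6:36678464-36678713 (plus) for CDKN1A, chr17:63773920-63774169 (plus) for DDX42, chr7:520227-520476 (minus) for PDGFA, chr10:88991309-88991387 (minus) for ACTA2 and chr16:85688955-85689204 (minus) for GINS2. The motif of BTG2 starts 168 bases before the start of the gene and that of CDKN1A 116 bases before it, both on the sense strand. DDX42 carries its motif on the antisense strand, 53 to 32 bases before the start, and PDGFA also on the antisense strand, 163 to 138 bases before it. In GINS2 the motif lies 237 to 219 bases upstream on the sense strand. The p53 element in the ACTA2 window, 2 adjacent half-sites with at most 2 mismatches outside their core C and G, covers bases 10 to 29 of the transcript. Which gene it acts on was not tested.

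Of 35116 RefSeq promoter windows of 300 bases, 25% held a G4 motif on either strand and 0.285% a p53 element. Among the 15 largest rises 12 genes had a window, and 6 of these held a G4 motif. Among the 15 largest falls 14 had one, and 5 held the motif. The 25% and 0.285% are shares of all RefSeq windows, not of the windows of genes tested. Shares among the genes tested are not given, so no excess or lack of motifs can be read from the 6 of 12 or the 5 of 14. A window was matched for 78.1% of all genes tested, fewer than 80%, so a comparison of the response between genes with and without the motif is void and is not given. A match describes letters only.

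The labelled cell line was checked against marker genes. KRT8 and KRT18, the keratins of simple epithelia, lay at 2661 to 3375 FPKM in the 6 libraries. Of the other epithelial markers KRT7 lay at 1504 to 1824 FPKM, KRT19 at 83.3 to 103 FPKM and CDH1 at 12.6 to 16.7 FPKM. EPCAM was low, at 1.61 to 2.36 FPKM. AKR1B10 and ALDH1A1, which A549 is known to express highly, lay at 1958 to 2187 and 1956 to 2102 FPKM. CDKN2A, deleted in A549, was listed at 0 in all 6. The 5 alveolar type II markers summed to at most 0.277 FPKM (SFTPB at 0), the 3 endothelial markers to at most 0.213 FPKM and the 5 fibroblast markers to at most 1.05 FPKM (DCN at 0), and CLDN4 stayed under 1 FPKM. CD68 (14 to 16.1 FPKM) and CD14 (2.81 to 4.42 FPKM) were present, with PTPRC and CD3E at or near 0, and the 4 leukocyte markers summed to 17.5 to 20.2 FPKM with vehicle and to 16.9 to 18.8 FPKM with pyridostatin. PARP3 was at 3.83, 3.4 and 3.96 FPKM with vehicle and at 3.74, 3.57 and 4.05 FPKM with pyridostatin, a log2 fold change of 0.02 (adjusted p = 0.915 from limma).

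Wild-type vehicle replicate 2 stood apart. Its median absolute distance from the mean of the other 2 libraries of its group was 0.157 on the log2 scale, against 0.0474 to 0.0964 for each other library. The 79 cytosolic ribosomal protein genes showed it best: their median level, relative to the mean of the 6 libraries, was 0.224 in that library, -0.107 and -0.0643 in the other 2 vehicle libraries, and -0.0215, -0.08 and 0.0609 with pyridostatin. Of 5 groups of genes by transcript length, that of the shortest had a median level of 0.16 in it, and that of the longest -0.192. Results that rest on it are therefore given with and without it. Read depth, estimated from the steps of low FPKM values, ran from 0.941 to 1.05 with vehicle and from 1.04 to 1.26 with pyridostatin relative to vehicle replicate 1, so the deepest of the 6 libraries had 1.34 times the reads of the shallowest. Only 13.4% to 15.4% of the low values compared lay at the common step.

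The first comparison asked which transcripts pyridostatin changed in wild-type cells. The response was wide and shallow, with a set of p53 target genes at its top and genes of DNA replication and mitosis among its falls. At an adjusted p under 0.05 from limma, over log2(FPKM + 1), 492 genes were called (4.16% of those tested), 328 higher (2.78%) and 164 lower (1.39%). Their median absolute log2 fold change was 0.28, and 310 of them changed by less than 1.25-fold. Past 1.5-fold there were 31 rises and 2 falls. Past an absolute log2 fold change of 1 there were 6 genes (0.0508%), and 3 without pyridostatin replicate 1. Without overlap between the 3 vehicle and 3 pyridostatin values, 1583 of all 11813 genes tested were higher and 1155 lower.

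The balance of directions depended on scaling and on single libraries. Of the calls 66.7% were higher, but 45.1% (242 higher, 294 lower) when all libraries were brought to the same median, and 50.3% without pyridostatin replicate 2. The shift moved the median over all genes from 0.0032 to -0.03. With only the 6 wild-type libraries in the fit 76 genes were called, 66 higher and 10 lower. Leaving out vehicle replicate 3, pyridostatin replicate 1 or pyridostatin replicate 3 gave 248, 176 and 243 calls, and without vehicle replicate 2 there were 715.

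**Figure D1:**
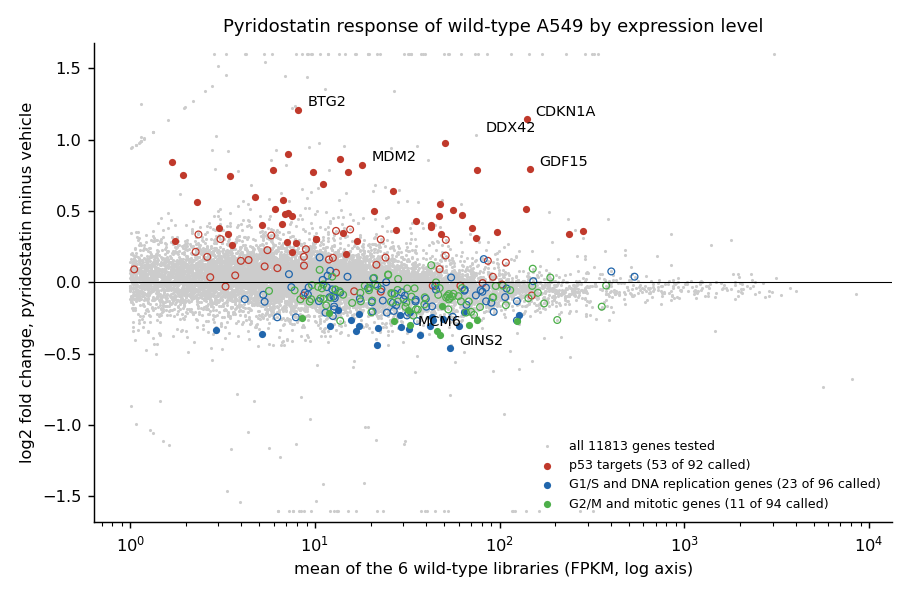
Log2 fold change of each gene tested in wild-type cells (vertical axis, pyridostatin minus vehicle) against its mean FPKM over the 6 libraries (horizontal, log axis). Grey points are all genes, colours the 3 lists named in the key, filled where called at an adjusted p under 0.05 and open where not, and 79 genes beyond 1.6 are drawn at the edge. Of the 92 p53 targets 83 lie above 0 and 53 are called, while the replication and mitotic genes lie mostly below 0.

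The p53 targets gave the clearest coordinated change. Of 106 listed genes 92 were tested, of which 53 rose (57.6%, against 2.78% of all genes) and 0 fell, with 69 above 0 at an unadjusted p under 0.05. Their median log2 fold change was 0.33, beside 0.0032 over all genes, and 83 of 92 were above 0. Relative to the mean of the 6 libraries, the median level of the list was -0.165, -0.168 and -0.16 with vehicle and 0.176, 0.186 and 0.148 with pyridostatin, so no library of one group reached the other. The count was 56 without vehicle replicate 2, and 31 with only the 6 wild-type libraries in the fit.

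Arrest genes rose most. CDKN1A, which encodes p21, was at 85.6, 94.9 and 80.5 FPKM with vehicle and at 194, 196 and 189 FPKM with pyridostatin. BTG2, an antiproliferative gene, went from 4.63, 4.35 and 4.56 FPKM to 11.7, 12.2 and 11.3 FPKM. Neither gene's groups overlapped, and both were already expressed with vehicle, CDKN1A far above BTG2 per length. Their log2 fold changes were 1.14 (SE 0.058) and 1.21 (SE 0.0722), with limma adjusted p-values of 9.71e-06 and 2.11e-05. SESN1 and SESN2, the sestrins that restrain mTORC1, rose by 0.90 and 0.79. SESN1 had 4.47, 4.62 and 4.97 FPKM with vehicle and 10.3, 9.99 and 8.58 FPKM with pyridostatin. GDF15, a secreted stress cytokine, was at 96.8, 119 and 104 FPKM with vehicle and at 181, 193 and 182 FPKM with pyridostatin (log2 fold change 0.79, adjusted p = 0.000204 from limma). GADD45A, PLK2, PLK3 and TP53INP1 also rose, by 0.64, 0.52, 0.47 and 0.755. In all 9 of the 15 arrest genes were called. The other 6, BTG1, DDIT4, E2F7, CCNG1, ZMAT3 and SERTAD1, had log2 fold changes of 0.07 to 0.30 and adjusted p-values of 0.069 to 0.582 from limma.

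Genes that act back on p53 rose as well. MDM2, the ubiquitin ligase that degrades p53, was at 14, 10.9 and 13.5 FPKM with vehicle and at 24.2, 23 and 22.5 FPKM with pyridostatin, without overlap (log2 fold change 0.82, adjusted p = 0.000222 from limma). PPM1D, the phosphatase WIP1 that removes activating phosphates from ATM targets, went from 5.53, 4.68 and 5.42 FPKM to 8.09, 8.98 and 7.75 FPKM. Its log2 fold change was 0.58 (adjusted p = 0.0015 from limma). TRIAP1, FBXO22 and RPS27L rose by 0.47, 0.43 and 0.34. PML and FBXW7 did not pass the test, with 0.11 and 0.30.

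Of 17 tested genes with a role in cell death 13 rose. BBC3, which encodes the BH3-only protein PUMA, was at 9.36, 10.3 and 8.27 FPKM with vehicle and at 18.5, 18.6 and 16.3 FPKM with pyridostatin (log2 fold change 0.87, adjusted p = 0.00121 from limma). PHLDA3, an inhibitor of AKT, went from 50.3, 61.5 and 53.3 FPKM to 93.1, 97.2 and 95.5 FPKM. The death receptor FAS went from 10.4, 10.7 and 11.3 FPKM to 21.4, 19.3 and 17.3 FPKM. None of these groups overlapped. The increase was smaller for TNFRSF10B, which encodes the TRAIL receptor DR5, and for BAX, the pore-forming effector: their log2 fold changes were 0.38 and 0.36 (adjusted p = 0.000419 and 0.0204 from limma). TNFRSF10A and TNFRSF10D, the other TRAIL receptors tested, rose by 0.29 and 0.21. PMAIP1, which encodes NOXA, was at 9.17, 8.5 and 9.09 FPKM with vehicle and at 9.01, 9.69 and 6.53 FPKM with pyridostatin, and did not pass the test (log2 fold change -0.09, adjusted p = 0.709). APAF1, PERP and PIDD1 did not pass it either, at 0.15, -0.02 and 0.12. BAX lost its call in 6 of 25 alternatives.

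Among the 6 repair genes of the list, DDB2 and XPC, which recognize damage in nucleotide excision repair, and POLH, the translesion polymerase eta, rose by 0.50, 0.50 and 0.60 (adjusted p = 0.000205, 0.000328 and 0.00163 from limma). DDB2 was at 43.5, 49.6 and 45.1 FPKM with vehicle and at 66.7, 64.9 and 65.6 FPKM with pyridostatin. RRM2B, REV3L and ASCC3 had log2 fold changes of 0.37, 0.34 and 0.36 and did not pass the test (adjusted p = 0.108, 0.149 and 0.0716 from limma). All 3 were lowest in vehicle replicate 2, for RRM2B at 10.8 FPKM against 15.1 and 14.6 FPKM in the other 2.

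Of the 47 remaining targets, in metabolism and other roles, 23 rose. FDXR, a mitochondrial ferredoxin reductase, was at 30.5, 38.2 and 32.5 FPKM with vehicle and at 69.4, 66.5 and 65.1 FPKM with pyridostatin (log2 fold change 0.97, adjusted p = 0.000125 from limma). ACER2, an alkaline ceramidase, went from 1, 0.726 and 1.03 FPKM to 2.7, 2.38 and 2.27 FPKM. C12orf5, the symbol in the table for TIGAR, which lowers glycolytic flux, rose by 0.49. TGFA, LIF and ITGA3 stayed within 0.10 of 0 on the log2 scale and did not pass the test.

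**Figure D2:**
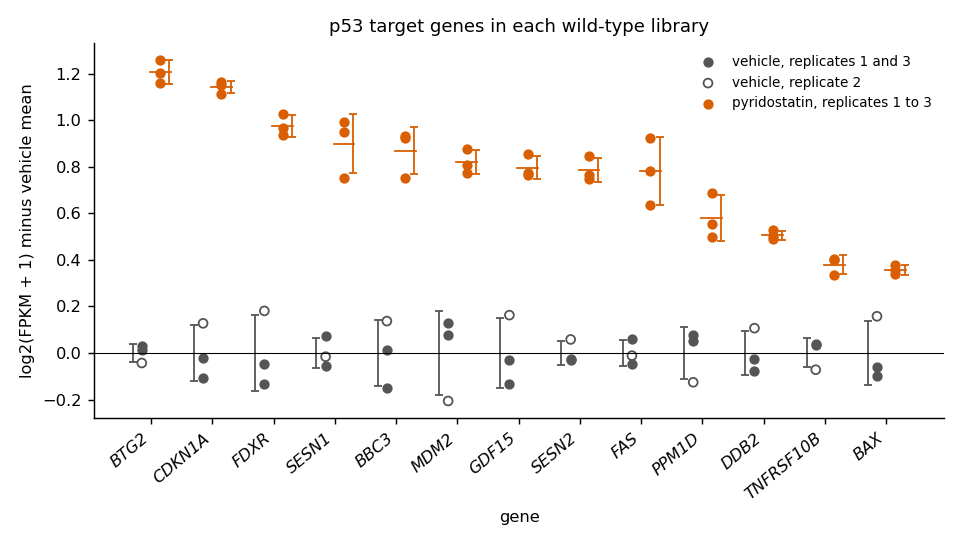
Level of 13 p53 target genes in each wild-type library, as log2(FPKM + 1) minus the mean of the 3 vehicle libraries (vertical axis), by gene (horizontal axis). Grey points are vehicle (open for replicate 2), orange points pyridostatin, and the error bars ± 1 SD of 3 libraries, with the horizontal line the mean with pyridostatin. The groups do not overlap for any of the 13, and the means run from 1.21 for BTG2 to 0.36 for BAX. Of all 11813 genes tested, 1583 were higher without overlap, and the 13 drawn were picked from the calls.

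Genes of S phase entry and DNA replication moved the other way. Of 96 tested, 23 fell (24%, against 1.39% of all genes) and 0 rose, the median log2 fold change was -0.13, and 13.5% were above 0. The changes were small, none of them beyond -0.46. The list's median level relative to the 6-library mean was 0.0688, 0.063 and 0.068 with vehicle and -0.0653, -0.081 and -0.057 with pyridostatin.

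The fall was spread over the machinery that licenses and fires origins. MCM6, a subunit of the replicative helicase, was at 35.8, 35.1 and 37.2 FPKM with vehicle and at 27.1, 28.5 and 29.8 FPKM with pyridostatin. MCM2 went from 46.8, 47 and 45.8 FPKM to 36.7, 37.7 and 37.9 FPKM. Both had groups that did not overlap, with log2 fold changes of -0.33 and -0.31 (adjusted p = 0.000945 and 0.00165 from limma), and MCM3, MCM4 and MCM7 fell by 0.25, 0.21 and 0.23. Licensing factors fell too: CDC6 by 0.27, CDT1 by 0.34 and ORC1 by 0.20. GINS2, which joins the MCM ring in the active helicase, was at 58.5, 70.9 and 58.3 FPKM with vehicle and at 43.2, 44.5 and 47.4 FPKM with pyridostatin, and its log2 fold change of -0.46 was -0.37 without vehicle replicate 2. CDC45, MCM10, DBF4 and PRIM1 fell by 0.32, 0.30, 0.31 and 0.32. Altogether 17 of 61 origin and fork genes were called lower.

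Upstream of these genes, E2F1 was at 23.1, 27.5 and 24.6 FPKM with vehicle and at 17.9, 18.2 and 18.5 FPKM with pyridostatin (log2 fold change -0.44, adjusted p = 0.00456 from limma). E2F2, E2F8 and MYBL2, a factor that E2F induces and that activates mitotic genes, fell by 0.33, 0.36 and 0.31. In the supply of nucleotides DUT, the dUTPase, fell by 0.37. UNG, the uracil glycosylase, is in the repair library and fell by 0.28.

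Mitotic genes fell as well. Of 94 G2/M genes 11 fell (11.7%, against 1.39% of all genes) and 0 rose, with a median log2 fold change of -0.105 and 10.6% above 0, against 51.1% of all genes. The list's median level was 0.0772, 0.0126 and 0.0803 with vehicle, lowest in replicate 2, and -0.0463, -0.079 and -0.0132 with pyridostatin. PBK, a mitotic kinase, varied little between libraries and was at 75.3, 74.9 and 74.6 FPKM with vehicle and at 61.2, 60.8 and 60.4 FPKM with pyridostatin (log2 fold change -0.30, SE 0.0269, adjusted p = 0.000211 from limma). MAD2L1, a spindle checkpoint protein, was at 50.5, 50.1 and 53.2 FPKM with vehicle and at 40.7, 42.7 and 37.8 FPKM with pyridostatin. LMNB1, the nuclear lamin whose loss accompanies senescence, fell from 55.5, 49.9 and 55.9 FPKM to 39.8, 45 and 39.5 FPKM. CDC20, AURKB, WEE1 and CENPA fell by 0.27, 0.27, 0.25 and 0.27.

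In bulk RNA, fewer cells in S phase or mitosis and less RNA of these genes per cell cannot be told apart. The number of calls depended on the fit. With only the 6 wild-type libraries 1 gene was called lower in each list, and without vehicle replicate 2 there were 34 replication and 27 mitotic genes. Leaving out vehicle replicate 3, pyridostatin replicate 1 or pyridostatin replicate 3 gave 15, 12 and 13 replication genes. For mitotic genes, leaving out any library of either genotype other than wild-type vehicle replicates 1 and 2 gave 4 to 7.

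**Figure D3:**
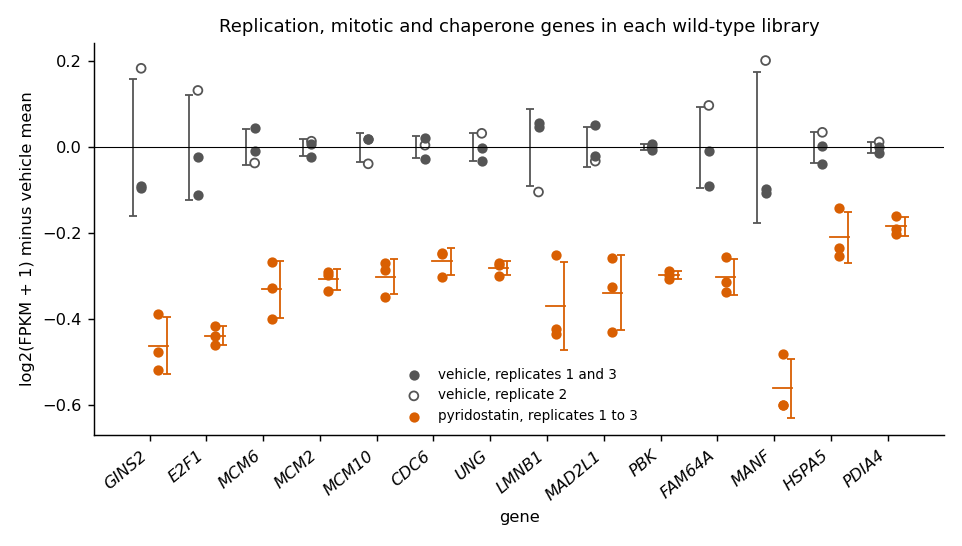
Level of 14 genes in each wild-type library, as log2(FPKM + 1) minus the mean of the 3 vehicle libraries (vertical axis), by gene (horizontal axis). From left to right they are 7 genes of replication and uracil removal, 4 mitotic genes and 3 chaperone genes, drawn with grey points for vehicle (open for replicate 2), orange points for pyridostatin and error bars of ± 1 SD of 3 libraries. All 3 pyridostatin libraries lie below all vehicle libraries for every gene shown, by 0.19 (PDIA4) to 0.56 (MANF) on average. Of all 11813 genes tested, 1155 were lower without overlap, and the 14 drawn were picked from the calls.

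The study's library of DNA repair genes, 169 in the table of which 159 were tested, held both directions. DDB2 and POLH rose (1.26%, against 2.78% of all genes), and 6 fell (3.77%, against 1.39%), namely LMNB1, UNG, H2AFZ, RAD54L, RAD1 and MSH6, the last 4 by 0.265, 0.25, 0.23 and 0.22. The median was -0.05, and 37 of 159 members were lower at an unadjusted p under 0.05 against 9 higher, beside 1096 lower and 1314 higher of all 11813 genes. Without vehicle replicate 2, 22 were called lower and 3 higher.

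Some members of smaller gene groups fell. Of 40 chaperone and ER stress genes 5 fell (12.5%, against 1.39% of all genes) and 0 rose. MANF, a chaperone-associated protein of the ER, was at 63.5, 78.8 and 63.9 FPKM with vehicle and at 44.8, 44.8 and 48.7 FPKM with pyridostatin (log2 fold change -0.56, adjusted p = 0.0025 from limma). HSPA5, which encodes the chaperone BiP, went from 173, 182 and 178 FPKM to 151, 149 and 161 FPKM, and the disulfide isomerases PDIA4, PDIA6 and PDIA5 fell by 0.19, 0.19 and 0.15. Of 40 genes of cholesterol and fatty acid synthesis 5 fell (12.5%), namely MSMO1, INSIG1, IDI1, CYP51A1 and SQLE, by 0.17 to 0.31. The calls of SQLE and MSMO1 were lost in 13 and 6 of 25 alternatives. ABCA1, the cholesterol exporter, rose by 0.38. The medians of these lists were -0.06 and -0.09, and -0.07 and -0.09 without vehicle replicate 2. In the fit of the 6 wild-type libraries alone 0 members of either list were called.

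Inflammatory and interferon genes were few among the calls. CCL20 and IL11, an attractant of lymphocytes and a cytokine of the IL-6 family, fell by 0.54 and 0.43 (adjusted p = 0.0188 and 0.00795 from limma). CCL20 was at 3.25, 3.36 and 3.82 FPKM with vehicle and at 2, 1.84 and 2.4 FPKM with pyridostatin. TNFAIP3, which encodes the NF-κB inhibitor A20, rose by 0.29. So 1 of 32 NF-κB genes rose (3.12%, against 2.78% of all genes) and 2 fell (6.25%, against 1.39%). At an unadjusted p under 0.05 there were 8 lower and 2 higher. The list's median was -0.0681, or -0.0485 without vehicle replicate 2. Of 38 interferon-stimulated genes ISG20 alone was called (2.63%, against 1.39% of all genes lower) and fell by 0.41.

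Among genes that rise early after stimulation, ATF3 was at 3.75, 3.79 and 4.22 FPKM with vehicle and at 7.3, 7.92 and 10.1 FPKM with pyridostatin. Its log2 fold change was 0.93 (adjusted p = 0.0408 from limma), and its call was lost in 15 of 25 alternatives. With BTG2 and IER5 it made 3 of 35 immediate early genes that rose (8.57%, against 2.78% of all genes), and the median of that list was 0.12, also without vehicle replicate 2. ATF3 is also a target of ATF4, yet of 48 genes of the ATF4 and amino acid response it was the only one called higher, while SLC1A5, a glutamine transporter, and CEBPG fell by 0.29 and 0.20, the latter with its call lost in 18 of 25 alternatives. In the TGF-β and BMP pathway SMURF1, BMP4 and ID3 rose by 0.36, 0.43 and 0.29, 3 of 38 (7.89%, against 2.78% of all genes), and the calls of BMP4 and ID3 were lost in 6 and 13 of 25 alternatives. RNF43 and AXIN2, feedback inhibitors of WNT signalling, rose by 0.30 and 0.42, and 2 of 29 genes of that list were called (6.9%, against 2.78%). WWC1 and AMOTL2, both regulators of YAP, rose by 0.25 and 0.21, while NT5E fell by 0.22, and AMOTL2 and NT5E lost their calls in 19 and 15 of 25 alternatives. Without vehicle replicate 2 the median of the YAP list was 0.04 in place of 0.13.

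Each list of genes tied to G4 biology held 1 call. Of 28 G4-unwinding helicases and G4-binding factors 1 was called (3.57%, against 1.39% of all genes lower), CNBP, which fell by 0.16. The median of the list was -0.00013. The list's level was -0.145 in vehicle replicate 2 against 0.0516 and 0.0565 in the other 2, and without that library the median was -0.0418 with 2 called lower. In PARP3-/- it was -0.0672. RTEL1, a helicase that unwinds telomeric G4s, was at 4.86, 5.66 and 5.74 FPKM with vehicle and at 4.27, 3.93 and 4.4 FPKM with pyridostatin (log2 fold change -0.30, adjusted p = 0.0885 from limma). Of 14 tested genes whose promoters are known for G4s PDGFA alone was called (7.14%, against 2.78% of all genes higher). The median of these genes was 0.0021, or -0.0365 without vehicle replicate 2. PDGFA was at 5.83, 5.79 and 5.35 FPKM with vehicle and at 8.78, 9.24 and 8.57 FPKM with pyridostatin, without overlap, and rose by 0.57 (adjusted p = 0.000148 from limma), a call kept in each of 25 alternatives. MYC was at 69.8, 73.6 and 72 FPKM with vehicle and at 67.3, 68.5 and 71.6 FPKM with pyridostatin, and TERT stayed between 1.35 and 1.78 FPKM. Both had overlapping groups.

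DDX42, an RNA helicase of the U2 snRNP that recognizes branch points, rose while other members of its list did not pass the test. It was at 49.9, 46.4 and 50.2 FPKM with vehicle and at 107, 98.9 and 96.8 FPKM with pyridostatin, a log2 fold change of 1.03 (SE 0.055, adjusted p = 9.71e-06 from limma) that kept its call in each of 25 alternatives. It was the one call among 28 U2 and SF3 components (3.57%, against 2.78% of all genes higher). The median of that list was -0.0531, or -0.0021 without vehicle replicate 2. Among SR proteins and hnRNPs, HNRNPL rose by 0.31, and PTBP2, SRSF2 and HNRNPA0 fell by 0.29, 0.20 and 0.17.

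Among the 15 largest rises, those in no list were GAS6-AS1, ANKRD20A12P, LOC102723769, SRGAP2B and ACTA2. GAS6-AS1, an antisense RNA of the GAS6 locus, whose reads cannot be told from those of GAS6 if strand was not used, was at 1.28, 1.83 and 1.59 FPKM with vehicle and at 4.44, 3.52 and 4.72 FPKM with pyridostatin (log2 fold change 1.02, adjusted p = 0.000222 from limma). ACTA2, smooth muscle actin, was at 8.29, 9.66 and 7.42 FPKM with vehicle and at 15.6, 15.3 and 14.9 FPKM with pyridostatin. Its window with a p53 element is printed above. SRGAP2B rose by 1.52, the largest rise among the called genes, and by 1.04 without vehicle replicate 2. It was listed at 0.0243 FPKM in that library against 1.78 and 1.75 FPKM in the other 2. SRGAP2B and FAM72D, which fell by 1.05, have near-identical copies among which reads could be split. They lost their calls in 7 and 15 of 24 alternatives, and both are uncertain, as are the pseudogene ANKRD20A12P and LOC102723769.

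Among the largest falls outside the lists were PAQR4, CDKN2C, KRT15 and SMCO4. CDKN2C, which encodes the CDK4 and CDK6 inhibitor p18, was at 13.8, 13.8 and 13.3 FPKM with vehicle and at 9.37, 10.7 and 9.83 FPKM with pyridostatin (log2 fold change -0.42, adjusted p = 0.000711 from limma), opposite to CDKN1A. PAQR4 fell by 0.55, KRT15 by 0.42 and SMCO4 by 0.41, and the long noncoding RNA H19 by 0.40, the last with its call lost in 9 alternatives. TEX30 was at 10.7, 10.4 and 10.3 FPKM with vehicle and at 7.96, 7.41 and 8.04 FPKM with pyridostatin, a fall of 0.38.

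Large housekeeping groups held few or no calls, and their small shifts in wild type changed when vehicle replicate 2 was left out. Of all 11813 genes, 2410 had an unadjusted p under 0.05. Of 79 cytosolic ribosomal protein genes 0 were called by limma and 0 had an unadjusted p under 0.05, and the list's median of -0.03 became 0.07 without that library. Oxidative phosphorylation genes (85 tested, 0 called, 9 at an unadjusted p under 0.05) went from -0.04 to 0.05 and mitochondrial ribosomal protein genes (76 tested, 0 called, 11 at an unadjusted p under 0.05) from -0.05 to 0.02. For snoRNA host genes the median went from -0.07 to 0.03, with DANCR the one call among 20 (5%, against 1.39% of all genes lower). PARP3-/- libraries do not include wild-type vehicle replicate 2, and their medians were -0.0319 for cytosolic ribosomal protein and -0.0153 for oxidative phosphorylation genes. For mitochondrial ribosomal protein and snoRNA host genes they were -0.0508 and -0.0764. The cause of these shifts was not tested. The 39 NRF2 targets, very high in A549 (ALDH3A1 lay at 1492 to 2018 FPKM), also had 0 calls and 3 at an unadjusted p under 0.05. Without vehicle replicate 2 ALDH3A1 was called (log2 fold change 0.38, adjusted p = 0.00438 from limma), and the list's median went from -0.0576 to -0.00755. In PARP3-/- the list's median was -0.0494. Zinc-finger genes with a numbered ZNF symbol included 11 rises among 293 (3.75%, near the 2.78% of all genes), led by ZNF609 at 0.62, and a median of 0.08. That median was 0.04 without vehicle replicate 2 or with libraries brought to the same median, where 10 rose and 3 fell or 4 rose and 2 fell.

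Length showed a similar pattern. With genes cut into 5 equal groups by their longest annotated transcript, the median log2 fold change was -0.05 in the group of the shortest (up to 2029 bases) and 0.07 in that of the longest (from 5819 bases). Without vehicle replicate 2 the same values were 0.02 and -0.0033. In PARP3-/- libraries, which do not include that library, they were -0.04 and 0.04. The part of length in the calls was not tested.

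**Figure D4:**
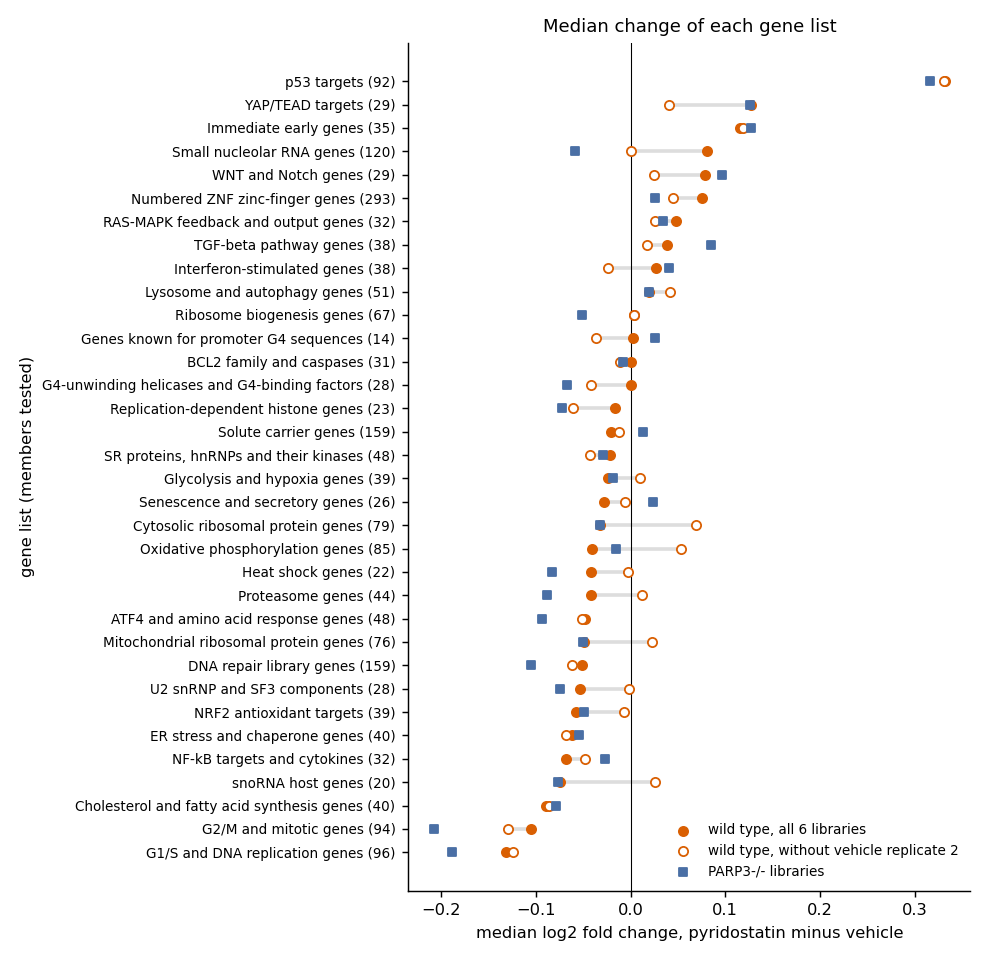
Median log2 fold change (horizontal axis) of each of 34 gene lists (vertical axis, members tested in brackets). Filled orange circles are wild type with all 6 libraries, open circles wild type without vehicle replicate 2, and blue squares the PARP3-/- libraries. The p53 list lies at 0.33, 0.33 and 0.32, while ribosomal protein and oxidative phosphorylation lists change side without vehicle replicate 2.

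The wild-type response was then looked up in the PARP3-/- libraries, which share no control with it. Both contrasts come from the same fit with a shared estimate of each gene's spread, so their calls are not independent. There 651 genes were called (5.51%), 356 higher (3.01%) and 295 lower (2.5%). Of the 492 wild-type calls 485 (98.6%) had the same sign in PARP3-/-, where 70% of all genes tested did, and 290 were also called there, 209 of the 328 rises and 81 of the 164 falls. Across these 492 genes the fold changes had a Pearson correlation of 0.895, which describes genes chosen by their change in wild type. Over all genes tested the correlation was 0.209. These include snoRNA genes with wild-type log2 fold changes as far out as -5.96 and 5.99, and how much such values weigh in it was not tested.

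The p53 targets gave similar counts, with 57 of 92 called higher and 0 lower in PARP3-/- and a median of 0.32. CDKN1A, BTG2, DDX42, MDM2 and PDGFA rose there by 1.05, 1.08, 0.92, 0.86 and 0.48. Replication genes had 42 falls against 23 in wild type and mitotic genes 41 against 11, with medians of -0.19 and -0.21. The counts of the lists were not tested against each other. For each gene, the interaction of genotype and treatment was tested. It gave 0 genes at an adjusted p under 0.05 from limma, 510 (4.32%) at an unadjusted p under 0.05, and a smallest adjusted p of 0.541. Of the 94 mitotic genes 10 had an unadjusted interaction p under 0.05, and their median interaction (PARP3-/- minus wild type) was -0.0882, while replication genes had 5 of 96 and -0.0329, p53 targets 5 of 92 and -0.0026, and all genes a median of -0.0074. Of the wild-type calls without the same sign, SRGAP2B (-0.41) and FAM72D (0.36) are the uncertain copies named above and TEX30 had 0.01. The PARP3-/- count also moved with single libraries, to 1559 without wild-type vehicle replicate 2, to 332, 291 and 307 without vehicle replicates 1, 2 and 3 labelled PARP3-/-, and to 273 and 251 without its pyridostatin replicates 2 and 3.

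**Figure D5:**
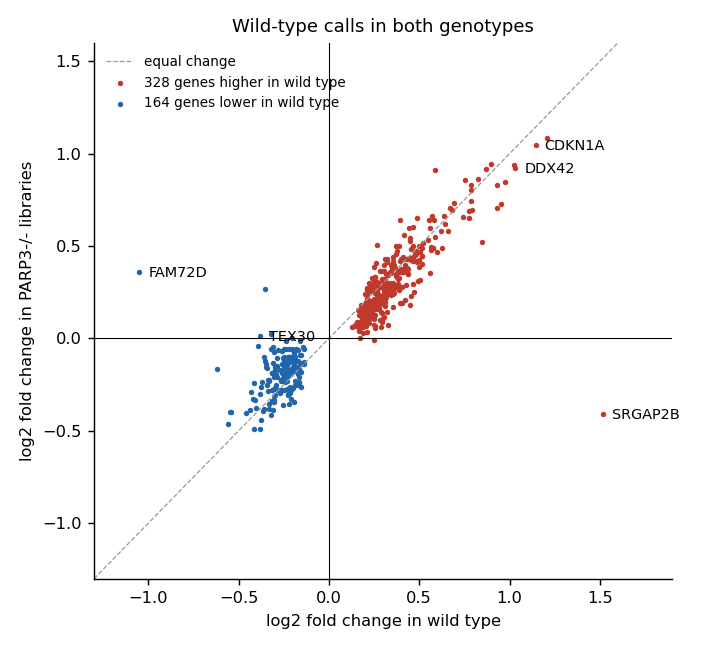
Log2 fold change with pyridostatin of the 492 genes called in wild type, in wild type (horizontal axis) and in the PARP3-/- libraries (vertical axis), red where higher and blue where lower in wild type. The dashed line marks equal change. Of the 492 genes 485 lie in the quadrants of equal sign, and SRGAP2B and FAM72D lie far off the line.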

How the data were processed

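RNA was measured in 12 libraries of A549 cells, 3 in each of 4 groups, prepared with a stranded mRNA kit and sequenced as single-end 75-base reads. The authors deposited FPKM values from Cufflinks, 1 column per library without pooling. The submitters' processing notes name bcl2fastq 2.16, STAR 2.5 and the builds hg19 and mm9, without their roles, and the annotation is not given in the sources used here. Alignment and scaling to length and depth are therefore already in the values, counts were not used here, and all columns of samples were used. FPKM on log2(FPKM + 1) understates the change of genes at low levels.

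Groups came from the sample titles. Genes averaging 1 FPKM or more in the 6 wild-type libraries were fitted with limma 3.58.1 in R 4.3.3 in one model of the 4 groups, eBayes with a trend and no block, as log2(FPKM + 1) without further scaling. Adjusted p-values are those of Benjamini and Hochberg across all genes tested. They rest on the spread among the 3 libraries of a group, estimated over all 4 groups. A call is an adjusted p under 0.05. The procedure was tested on simulated data with known changes. Those values were drawn independently for each gene and library, so that test does not cover a library that stands apart as a whole. Alternatives were a pseudocount of 0.1, no filter, a mean of at least 5 FPKM, a filter over 12 libraries, quantile normalization, a common median, only the wild-type libraries, no trend, array weights, a replicate block, no genes under 300 bases, a fold threshold of 0.58 and each library left out. Fits that leave out wild-type vehicle replicate 2 together with a common median or with the PARP3-/- libraries were chosen after seeing the data.

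Named genes were those past both thresholds, the 15 largest rises and falls among calls whose groups do not overlap (genes under 300 bases left out), up to 4 members of each list with the smallest p, 10 p53 targets and PARP3. Further list members were named once their values had been seen, and 1 member is not reported here. Members and lists were chosen with earlier results of these data known. Lists are described by counts and medians, beside those of all genes, without a test of the list. Where older and newer symbols differ, the symbol of the table is printed. RPL7L1 and other paralogs that are not core ribosomal proteins were left out of that list. Transcript lengths came from GENCODE release 29 (97.6% of genes matched) and promoter windows from RefSeq on GRCh38.p14, used for names, lengths and sequence only. Relative depth came from the ratio that low values of 0.01 to 0.3 FPKM most often have to the same gene in wild-type vehicle replicate 1. Python 3.11.15, numpy 2.4.6, pandas 2.3.3 and matplotlib 3.10.9 served for lengths, motifs and figures.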

Additional observations from a re-analysis of the deposited data

How the results depend on the processing

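The 53 p53 targets that rose stayed within 41 to 56 when 1 library was left out and were 31 with only the 6 wild-type libraries, 43 with those less vehicle replicate 2, and 71 with array weights. The total of 492 calls was 76 with only the 6 wild-type libraries, 3037 with array weights (which gave wild-type vehicle replicate 2 a weight of 0.1), 182 with 5 wild-type libraries and 833 with a common median without vehicle replicate 2, and ran from 176 to 715 with 1 library left out. The 6 genes past both thresholds became 11 with a pseudocount of 0.1, 3 at a mean of at least 5 FPKM, 50 with array weights, 11 with 5 wild-type libraries, 35 at a fold threshold of 0.58, and 3 to 8 with 1 library left out. Replication genes called lower numbered 1 with 6 wild-type libraries, 53 with array weights, 15 with 5 wild-type libraries, 39 with a common median without vehicle replicate 2, and 12 to 34 with 1 library left out. Mitotic genes numbered 18 with a common median, 1 with 6 wild-type libraries, 7 without a trend, 55 with array weights, 4 with 5 wild-type libraries, 31 with a common median without vehicle replicate 2, and 4 to 27 with 1 library left out. In PARP3-/- the 651 calls were 2159 with array weights, 1583 with a common median without wild-type vehicle replicate 2, and 251 to 1559 with 1 library left out. The interaction gave 1 call with a pseudocount of 0.1, 1 without a filter, 3 with array weights, and 0 to 1 with 1 library left out (1 without wild-type pyridostatin replicate 1 or 2). Fewer libraries lower the number of residual degrees of freedom, and the cause of the other changes was not tested.

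Same-numbered vehicle and pyridostatin libraries deviated from their group means with correlations of -0.0595, 0.0255 and -0.119 across genes. Groups are small and wild-type vehicle replicate 2 stood apart, so these values cannot decide whether the numbers pair libraries. A fit with a block for the replicate number called 421 genes, 7 past both thresholds, 583 in PARP3-/-, 0 in the interaction, 52 p53 targets, 23 replication and 11 mitotic genes. Replicate 2 of the wild-type vehicle, left out alone, gave 715 calls and 34 replication, 27 mitotic and 56 p53 genes. With only the wild-type libraries there is no value for PARP3-/- or the interaction. Of the 85 named genes that were called, 25 kept their call and direction in every alternative that tested them. No call of a named gene changed sign. The FPKM values carry no counts, so counting error is unknown, and low genes rest on few reads.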

Other observations

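Some gene groups fall outside the comparisons described so far. Of 159 solute carrier genes 5 rose and 2 fell (3.14% and 1.26%, near the 2.78% and 1.39% of all genes), among them SLC43A2, a transporter of large neutral amino acids (1.91, 1.95 and 1.99 FPKM with vehicle and 2.9, 2.77 and 2.9 FPKM with pyridostatin), and SLC25A28, a mitochondrial iron carrier, with log2 fold changes of 0.39 and 0.45. Of 26 senescence and secretory genes CDKN1A and GDF15 rose and LMNB1 fell (7.69% and 3.85%), and the list's median was -0.0282, or -0.00615 without wild-type vehicle replicate 2, where 2 rose and 2 fell. In glycolysis and hypoxia PFKFB3 and KDM3A rose by 0.18 and 0.33, 2 of 39 (5.13%), with calls lost in 11 and 13 of 25 alternatives. Among 22 heat shock genes HSPA4L rose by 0.46 and PTGES3, a cochaperone of HSP90, fell by 0.23 (4.55% each way). Of 44 proteasome genes PSMD10 alone was called (2.27%, against 1.39% of all genes lower) and fell by 0.20.

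No call was made by limma among 32 RAS-MAPK, 51 lysosome and autophagy, 67 ribosome biogenesis and 23 replication-dependent histone genes, of which 8, 8, 7 and 2 had an unadjusted p under 0.05, beside 2410 of all 11813 genes. Many histone mRNAs lack a poly(A) tail, and only 23 of the 70 histone names in the table were tested. Among 120 snoRNA genes SNORA8 fell, from 96.8, 110 and 130 FPKM with vehicle to 72.3, 76.8 and 68.2 FPKM with pyridostatin. It is under 300 bases.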
